A study of Mus musculus with 4 samples.

Results

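Gata4 binding at collagen and laminin genes was described from the peak lists of Gata4 ChIP-seq in wild-type (WT) and *Dnmt3a*/*Dnmt3b* double-knockout (DKO) mesoderm. A peak belonged to the family when its deposited gene name was a collagen chain (Col, a number, a and a number) or a laminin chain (Lama, Lamb or Lamc and a number), and each peak was counted once. By this rule the WT list held 53 family peaks among 20410 and the DKO list 57 among 22733, together 110 of 43143. They named 27 of the 54 collagen and laminin genes in the GENCODE vM1 annotation of mm9.

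All cells came from J1 ES cells of 129 background, in which a CAG promoter drove Gata4GR, Gata4 joined to the hormone-binding part of a glucocorticoid receptor, which dexamethasone (Dex) activates. WT (clone J1G4.2 by the library's label, J1G4.211 in the methods) and *Dnmt3a*−/−*Dnmt3b*−/− (clone 16G4.3) ES cells were grown on OP9 stromal cells to day 4.5 and given 100 nM Dex for 3 hr, and Flk1(+) mesoderm cells were sorted magnetically. Undifferentiated WT ES and DKO ES cells without Dex gave the background libraries, and a mixture of 3 antibodies to Gata4 was used throughout. The comparison asks where activated Gata4 binds in mesoderm with and without the de novo DNA methyltransferases. With 1 library in each of the 4 conditions and 1 clone of each genotype among the Flk1(+) libraries, every difference below describes these libraries and has no replicate check; intervals are exact binomial or order-statistic 95% intervals and cover counting error only. The lists hold no value for a library at a position where it has no peak, and their depth is not given in the files; the study's methods report more mapped reads for DKO than for WT, and the effect of this on the lists was not tested.

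Collagens are secreted or membrane-bound proteins whose α-chains wind into a triple helix, and laminins are cross-shaped trimers of an α, a β and a γ chain. Type IV collagen and laminin each assemble into a network, and the networks together form the basement membrane, the sheet on which epithelia and vessels rest. The primitive endoderm, the lineage that Gata4 drives from ES cells, is known for secreting both in large amounts into the first basement membranes of the embryo.

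Family peaks lay mostly inside introns in both lists. In the WT list 48 of 53 and in the DKO list 50 of 57 fell within the family gene they named, and introns held 43 and 48. Counting any gene that a peak named, neighbours included, 48 WT (90.6%) and 52 DKO (91.2%) family peaks lay inside one, beside 41.8% and 50.3% of all peaks and 65.8% and 64.9% of the peaks that named any gene. Within 1 kb of the 5′ end of any annotated gene lay 9 WT family peaks (17.0%, interval 8.07% to 29.8%), beside 26.5% of all WT peaks. The DKO list had 10 such family peaks (17.5%, interval 8.75% to 29.9%), beside 47.3% of all DKO peaks. The WT interval includes the whole-list value and the DKO interval lies below it. The family genes are long, with a median of 110.6 kb against 15.5 kb for all protein-coding genes, and among peaks that named any gene the start-site share was 39.9% in WT and 59.1% in DKO.

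Of the WT family peaks 19 (35.8%, interval 23.1% to 50.2%) had a DKO peak within 500 bp, beside 45.6% of all WT peaks. Of the DKO family peaks 19 (33.3%, interval 21.4% to 47.1%) had a WT peak within 500 bp, beside 45.1% of all DKO peaks. Each interval includes its whole-list value. Outside *Col4a1*, *Col4a2* and *Col23a1*, a split made after seeing the data, 9 of 37 WT (24.3%) and 9 of 33 DKO (27.3%) family peaks were shared. Of the peaks that named any gene 52.0% (WT) and 43.9% (DKO) were shared, the first above the WT family interval and the second within the DKO one. More than 1 kb from any start site 38.6% (WT) and 36.2% (DKO) of the family peaks were shared, beside 35.8% and 44.6% of all such peaks. Within 1 kb of one, 2 of 9 WT and 2 of 10 DKO family peaks were shared, beside 72.6% and 45.6%. Among the better-ranked 50% of each list the family shares were 56.0% and 58.3%, beside 52.2% and 55.5%. The median height of the shared family peaks, the authors' profile height in Flk1(+) cells, was 12.4 (interval 8.27 to 22.8) in WT and 8.25 (interval 6.61 to 13.1) in DKO. Family peaks without a counterpart had medians of 6.11 and 6.06. Over all peaks the same medians were 10.1 and 6.69 in WT, and 7.82 and 6.40 in DKO, for shared and unshared peaks. Family peaks without a counterpart lay a median of 23.3 kb (WT) and 12.0 kb (DKO) from the nearest peak of the other list, beside 28.5 kb and 22.7 kb over all such peaks.

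The Gata motif WGATAA, which is AGATAA or TGATAA on either strand (TTATCT or TTATCA when read from the other), was present in the deposited window of 36 WT family peaks (67.9%, interval 53.7% to 80.1%), beside 61.9% of all WT peaks. In the DKO list 30 family peaks held it (52.6%, interval 39.0% to 66.0%), beside 38.1% of all DKO peaks. The whole-list value lies within the WT interval and just under the DKO interval. Of the peaks that named any gene 52.3% (WT) and 30.3% (DKO) held the motif, each below the family interval. With an enrichment of at least 5 the family shares were 76.0% (WT) and 57.1% (DKO), beside 77.1% and 56.7% of all such peaks. Away from start sites the family shares were 77.3% (WT) and 63.8% (DKO, interval 48.5% to 77.3%), beside 75.8% and 58.8% of all such peaks. Windows centred 2 kb to either side of the family peaks held the motif in 34.0% (WT) and 33.3% (DKO), beside 41.1% and 38.8% for windows beside all peaks. The matches lay towards the peak: 47.8% of the 67 WT matches and 45.3% of the 53 DKO matches fell within the central 100 bp, beside 46.3% and 42.3% over all peaks. Shared family peaks held the motif in 15 of 19 windows of each list, and unshared ones in 21 of 34 (WT) and 15 of 38 (DKO). Over all peaks the shares for shared and unshared peaks were 52.8% and 69.5% in WT, the reverse order, and 47.5% and 30.3% in DKO. In the central 200 bp the motif lay in 14 of 19 shared and 6 of 38 unshared DKO family peaks, beside 38.9% and 20.7% over all DKO peaks. The WT list had it there in 15 of 19 and 19 of 34, beside 44.4% and 59.5%. Near start sites 2 of 9 WT family peaks and 0 of 10 DKO family peaks held it, beside 23.4% and 14.9% of all start-site peaks.

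The median of the family windows was 6 CpGs (interval 5 to 9) in WT and 7 (interval 6 to 8) in DKO, beside 8 and 21 over all peaks; the WT interval includes 8. All peaks away from start sites had medians of 6 and 8. Family peaks near a start site had medians of 33 and 38 CpGs, beside 36 and 38 for all such peaks. The median height of all family peaks was 6.99 (interval 6.05 to 8.52) in WT, beside 7.74 over the list, and 6.67 (interval 5.90 to 7.30) in DKO, beside 6.91. ES heights at the family peaks had medians of 1.53 and 1.52, beside 1.68 and 1.58.

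Gene by gene, 24 of the 54 family genes were named by the WT list and 23 by the DKO list, beside 36.4% and 45.5% of 22238 protein-coding genes. As shares of the family these are 44.4% and 42.6%. Among protein-coding genes longer than 50 kb, a comparison chosen after seeing the data, the shares were 56.9% (WT) and 61.2% (DKO), and the 36 family genes of that length were named in 58.3% in each list. The lists named 20 family genes in common. The WT list alone named *Col1a1*, *Col19a1*, *Col22a1* and *Lama2*, the DKO list alone named *Col4a3*, *Col9a1* and *Col15a1*, and neither named the other 27.

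Type IV collagen is the network collagen of basement membranes, and its genes lie in head-to-head pairs. *Col4a1* and *Col4a2* encode the chains of the form found in nearly every basement membrane. They occupy chr8:11198423-11312826 (minus strand) and chr8:11312805-11449287 (plus strand) of mm9, with start positions 21 bp apart. Together they held 6 WT and 16 DKO family peaks. No peak of either list lay at their common CpG-rich start, where a window of the same width held 59 CpGs: the nearest DKO peak was 15.1 kb away and the nearest WT peak 45.3 kb away.

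*Col4a1* carried a set of shared intronic peaks. The highest, in intron 21, had a height of 31.2 at 11234295 in WT, with an ES height of 1.33 and rank 58 of 20410. In DKO it had a height of 19.3 at 11234292, with an ES height of 0.480 and rank 131 of 22733. It is the second highest family peak of each list, and the DKO/WT height ratio was 0.618. In intron 2 another peak had heights of 17.1 at 11259975 (WT) and 16.7 at 11259985 (DKO). The next had 12.4 at 11267485 and 13.1 at 11267483, and the last 12.5 at 11258854 and 12.4 at 11258782. The intron 2 height ratios were 0.978, 1.05 and 0.992, which is 1.22, 1.32 and 1.24 times the median over all pairs, 0.801. Their ES heights were 2.62, 2.45 and 4.02 in WT and 2.01, 1.13 and 0.401 in DKO. All of these windows held WGATAA, and the central bases of the intron 21 peak, which is shown as the highest type IV collagen peak with the motif in capitals, are chr8:11234245-11234345 (plus strand).
*Col4a1* intron 21: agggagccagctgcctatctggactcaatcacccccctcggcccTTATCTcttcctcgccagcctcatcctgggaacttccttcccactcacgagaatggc

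*Col4a1* had 3 further peaks in DKO and none in WT. The one in intron 1 at 11272299 had a height of 11.6, the second highest of the DKO family peaks without a counterpart, over an ES height of 3.61, which left an enrichment of 3.21 and rank 15602. The others, at 11297717 in intron 1 and at 11222652 in intron 28, had heights of 5.06 and 5.17. The nearest WT peaks lay 4814, 30232 and 11643 bp away. The central bases of the 11272299 peak, chr8:11272249-11272349 (plus strand), are shown for the DKO-only peaks; the 1 WGATAA match of its window lies outside them.
*Col4a1* intron 1, DKO only: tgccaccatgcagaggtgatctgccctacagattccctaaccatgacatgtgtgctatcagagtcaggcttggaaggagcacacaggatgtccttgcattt

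*Col4a2* had 9 peaks in DKO and 2 in WT. The shared position in intron 4 had a height of 12.2 at 11380177 in WT and 7.83 at 11380070 in DKO, a ratio of 0.640, with 2 WGATAA matches in each window. The other WT peak, at 11394664, had a height of 5.60 and lay 753 bp from a DKO peak at 11393911 of height 5.74, just outside the 500 bp limit. Heights of the other DKO peaks of the gene were 7.06 and 5.83 at 11340448 and 11340625 in intron 3, and 6.01, 5.48, 6.99 and 7.30 at 11371596, 11372267, 11382634 and 11393336 in intron 4. The last had a height of 5.90 at 11450354, 1068 bp past the end of the gene, and also named *Rab20*. WGATAA was present in 5 of these 7 windows.

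Chromosome 8 as a whole held more DKO peaks, 2108 against 1365 in WT, a ratio of 1.54 beside 1.11 over all chromosomes. The median ES height at WT peaks was 1.98 on chromosome 8 and 1.66 elsewhere, and at DKO peaks 1.62 and 1.58. At shared positions the median DKO/WT ratio of ES heights was 0.560 on chromosome 8, beside 0.702 over all chromosomes, and that of Flk1(+) heights was 0.706, the lowest of any chromosome, beside 0.801. All 5 pairs in *Col4a1* and *Col4a2* had the lower ES height in DKO, with a median ratio of 0.359. The part of this chromosome-wide difference in the 6 and 16 peaks was not tested. Away from chromosome 8 the family had 47 WT and 41 DKO peaks, among 19045 and 20625.

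The other type IV genes, which encode the chains of kidney, lung and muscle basement membranes, had few peaks. *Col4a6*, on the X chromosome at 137599946-137908619, had 1 peak in intron 3, 169.6 kb from its start, with a height of 5.06 at 137739033 in WT and 6.61 at 137739034 in DKO. The ratio of 1.31 was 1.63 times the median over all pairs, and both windows held 2 matches within the central bases. *Col4a5*, which starts 1309 bp from *Col4a6* and runs the other way, was not named. *Col4a3* was named in DKO only, by a peak of height 6.84 at 82721443 on chromosome 1 that lay 2809 bp past its end and 22 bp from the start of *Mff*. *Col4a4* was not named, and the nearest peaks to its start, 72 bp from that of *Col4a3*, lay 229 kb (WT) and 138 kb (DKO) away.

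Of the fibrillar collagens, which form the banded fibrils of tendon, bone, cartilage and skin, 4 of 11 were named, and no peak was shared: the WT list had 7 and the DKO list 4. *Col5a1*, whose chain nucleates and limits the thickness of type I fibrils, had 3 WT and 2 DKO peaks. The WT peaks were a close pair in intron 1, with heights of 6.28 at 27748600 and 6.11 at 27748682, and a peak of height 7.57 at 27849127 in intron 32. The close pair lay in a TG-rich repeat. In DKO the highest family peak without a counterpart lay 94 bp inside the gene, in the 5′ UTR, with a height of 11.8 at 27742039 over an ES height of 3.25 (enrichment 3.62, rank 10872). Its window held 54 CpGs and no WGATAA. The other DKO peak had a height of 5.49 at 27755071 in intron 1.

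*Col27a1*, a cartilage collagen, had WT peaks of height 7.01 at 62892376 (intron 3) and 8.92 at 62909409 (intron 7), and a DKO peak of height 5.37 at 62965314 (intron 34). *Col24a1* had a WT peak of height 8.73 at 145131687 and a DKO peak of height 5.65 at 145159090, both in introns and 27403 bp apart. These WT peaks of *Col27a1* (rank 3736) and *Col24a1* (rank 3928) were among the 5 highest of the WT family peaks without a counterpart. *Col1a1*, a chain of type I collagen, had a low WT peak of height 5.03 at 94799137 in intron 1. *Col1a2*, *Col2a1*, *Col3a1*, *Col5a2*, *Col5a3*, *Col11a1* and *Col11a2* were not named.

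The fibril-associated collagens, which sit on the surface of fibrils, had 9 WT and 3 DKO peaks, in lists with a DKO/WT ratio of 1.11 in all peaks, and 5 of 9 genes were named. *Col14a1*, found in skin and tendon, had 4 WT peaks and 1 DKO peak. At its start a WT peak of height 7.10 lay at 55139310, 5 bp from the 5′ end, with 25 CpGs and 1 WGATAA match. In intron 1 followed a WT peak of height 8.52 at 55144910 (rank 4164) with 3 matches, and the shared position, with heights of 6.81 at 55147483 (WT) and 5.71 at 55147521 (DKO) and 3 matches in each window. The last WT peak, of height 6.39, lay at 55340923 in intron 45. The DKO list thus held 1 of the 4 positions.

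*Col12a1*, a relative of *Col14a1* in tendon and muscle, had a WT peak of height 5.04 at 79566318 in its 5′ UTR, 320 bp from the start, and another of height 5.14 at 79535284 in intron 13. Its DKO peak of height 5.32 lay at 79465340 in intron 53. *Col19a1* had WT peaks of height 6.10 and 5.36 at 24460458 and 24571923 on chromosome 1, and *Col22a1*, found at muscle-tendon junctions, a WT peak of height 6.69 at 71705449. *Col9a1*, a cartilage collagen, was named in DKO only, with a height of 5.19 at 24248591. *Col9a2*, *Col9a3*, *Col16a1* and *Col20a1* were not named. The peaks of *Col9a1*, *Col12a1*, *Col19a1* and *Col22a1* had heights between 5.04 and 6.69, in lists whose lowest height was 5.00.

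The multiplexins *Col15a1* and *Col18a1* encode basement membrane collagens that carry heparan or chondroitin sulfate chains, and the C-terminal part of the *Col18a1* chain is released as endostatin. They had 1 WT and 7 DKO peaks, in lists with a DKO/WT ratio of 1.11 in all peaks. *Col18a1* (chr10:76514923-76629293, minus strand) had a shared peak in intron 2, with heights of 11.7 at 76622511 in WT and 8.08 at 76622542 in DKO, a ratio of 0.693, and 2 WGATAA matches in each window. Its 5 other DKO peaks were in intron 2 as well. They had low enrichments of 3.03 to 3.93, in a list with a lowest value of 3.00, and ranks of 16967 to 21738 of 22733. A group near the start had heights of 7.30 at 76628242, 6.28 at 76628391 and 5.08 at 76628752, between 541 and 1051 bp from the 5′ end, and with 27, 33 and 35 CpGs. Neighbouring windows of this group overlapped, and each was counted as a peak of its own. A pair farther in had 6.47 at 76614329 and 6.67 at 76615294. Only the 76628242 window of these held the motif, and no WT peak lay within 5 kb of any of them. *Col15a1* had a DKO peak of height 7.19 at 47221656, 623 bp from its start, with 28 CpGs, and the nearest WT peak was 116486 bp away.

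Of the transmembrane collagens, single-pass proteins whose helical ectodomain is shed or stays on the cell surface, *Col23a1* had the most family peaks in WT, 10, and 8 in DKO, where *Col4a2* had 9. The gene spans 294.0 kb (chr11:51103422-51397420, plus strand). Its highest peak was the highest family peak of both lists. It lay in intron 2, 196289 bp from the start in WT, with a height of 40.0 at 51299711 in WT (ES height 1.66, enrichment 24.0, rank 18) and 31.7 at 51299694 in DKO (ES height 1.44, enrichment 22.0, rank 11). The ratio of 0.793 was close to the median over all pairs, 0.801. The WT window held 2 WGATAA matches and the DKO window 3. The central bases, chr11:51299661-51299761 (plus strand), are printed as those of the highest shared family peak, with the match in capitals.
*Col23a1* intron 2: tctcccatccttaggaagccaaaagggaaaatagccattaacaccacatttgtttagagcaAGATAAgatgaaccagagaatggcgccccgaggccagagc

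About 1 kb upstream of it, a peak without WGATAA had heights of 17.2 at 51298602 in WT (rank 583) and 12.8 at 51298576 in DKO (rank 4158). Another shared position in intron 2 had heights of 10.4 at 51286760 and 7.06 at 51286747, with 1 match in each. In intron 5 the lists differed more, with a height of 12.2 at 51358159 in WT (enrichment 11.3, rank 1604) and 6.17 at 51358100 in DKO (enrichment 3.27, rank 21335). This ratio of 0.508 was 0.635 of the median over all pairs, and each window held 3 matches. The last shared position, in intron 6, had heights of 5.21 at 51364245 and 5.52 at 51364084, 161 bp apart and without a match.

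The peaks of *Col23a1* without a counterpart were spread over the gene. The highest WT one of the whole family was in intron 5, with a height of 10.8 at 51353369 over an ES height of 2.96 (rank 13425) and 1 match. A DKO peak of height 7.13 lay 3044 bp from it at 51350325. Other WT heights were 5.52 at 51284436, 7.67 at 51341060 and 5.56 at 51359304, in introns 2, 4 and 5. Other DKO heights were 9.25 at 51169440 in intron 2, among the 5 highest of the DKO family peaks without a counterpart, and 7.70 at 51398614, which lay 1187 bp past the gene and 355 bp from the start of *Agxt2l2*. At the start of *Col23a1*, which lies in a CpG-rich stretch of 58 CpGs, a WT peak of height 5.86 lay 166 bp upstream at 51103256, and the nearest DKO peak lay 26.8 kb from the start, outside the gene. The central bases of the highest WT-only peak are chr11:51353319-51353419, and those of the start-site peak chr11:51103206-51103306 (both plus strand, no WGATAA in the latter).
*Col23a1* intron 5, WT only: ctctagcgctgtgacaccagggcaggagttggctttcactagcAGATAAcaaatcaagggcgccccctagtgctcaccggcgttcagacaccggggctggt
*Col23a1* start, WT only: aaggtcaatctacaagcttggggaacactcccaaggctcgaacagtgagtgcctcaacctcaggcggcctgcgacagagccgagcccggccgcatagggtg

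*Col13a1*, a transmembrane collagen of cell-matrix contacts and the neuromuscular junction, had the largest height difference among the shared family peaks. In intron 5 the WT peak at 61369130 had a height of 22.8 over an ES height of 3.03 (rank 1530), and the DKO peak at 61369139 had 7.95 over 1.86 (rank 13036). The ratio of 0.349 was 0.436 of the median over all pairs. Positions were 9 bp apart, and each window held 1 match. The other WT peaks had heights of 6.99 at 61365527 in intron 7, 6.63 at 61399469 in intron 2 and 5.59 at 61441155 in coding exon 1, 701 bp from the start, with 44 CpGs. The other DKO peak, of height 8.88 at 61391887 in intron 2, had rank 19760 over an ES height of 2.90, and was also among the 5 highest without a counterpart. *Col17a1* of hemidesmosomes and *Col25a1* were not named. The central bases of the intron 5 position, chr10:61369080-61369180 (plus strand), are printed for the pair with the lowest ratio.
*Col13a1* intron 5: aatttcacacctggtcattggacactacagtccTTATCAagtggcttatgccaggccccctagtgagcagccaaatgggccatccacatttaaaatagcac

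Among the remaining collagens *Col28a1*, a gene of peripheral nerve collagen, had a WT peak of height 8.03 at 7959299 in intron 33 and a DKO peak of height 5.19 at 8127426 in intron 1. The beaded-filament genes *Col6a1* to *Col6a6*, the anchoring-fibril gene *Col7a1*, the network genes *Col8a1* and *Col8a2* and the growth-plate gene *Col10a1* were not named by either list.

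Laminin α chains carry the cell-binding domains, and all 5 of their genes were named, with 8 WT and 6 DKO peaks. *Lama3*, the α chain of epithelial laminin, had one of the 5 highest WT family peaks. It lay in intron 2, with a height of 23.5 at 12549891 on chromosome 18 (ES height 1.75, rank 200), and the DKO peak at 12549884 had 12.1 (ES height 1.15, rank 746). The ratio of 0.514 was 0.642 of the median over all pairs, and each window held 1 match. A WT peak of height 5.26 at 12527392 in intron 1 had no counterpart. *Lama3* thus had its main position in both lists and the lower height in DKO.

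*Lama5*, the α chain of most adult basement membranes, had a shared peak past its end, with heights of 8.27 at 179906168 (WT) and 5.57 at 179906172 (DKO), 22 and 18 bp from the start of *Adrm1*, and 61 and 62 CpGs. Near its own start the WT list had a peak of height 5.74 at 179960055, 509 bp inside intron 1, and the DKO list one of height 5.51 at 179962569, 2005 bp upstream. *Lama4*, of vessels and muscle, had no shared peak. Its WT peak, the second highest of the WT family peaks without a counterpart, had a height of 9.13 at 38681971, 3350 bp upstream of the start (rank 3497), with 3 matches. Its DKO peaks had heights of 5.82 at 38764570 in intron 9 and 7.08 at 38827018 in intron 37. *Lama1*, the α chain of the early embryo and of primitive endoderm, had low peaks only, with heights of 5.37 at 68082596 and 5.64 at 68108994 in WT and 5.48 at 68071870 in DKO. *Lama2*, the muscle α chain, had a WT peak of height 5.66 at 26716647 in intron 58, and its 5 WGATAA matches were the most in any family window.

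Of the β chains *Lamb2*, found at neuromuscular junctions and in the kidney filter, was named, while *Lamb1*, the β chain of the early embryo, and *Lamb3*, that of epithelial laminin, were not. The nearest peaks to the *Lamb1* start lay 79.1 kb (WT) and 85.8 kb (DKO) away. *Lamb2* had a WT peak of height 8.16 at 108381212, 981 bp upstream. Its shared position was at the other end, near the start of *Usp19*, with heights of 6.05 at 108392845 in the 3′ UTR (WT) and 8.25 at 108393139 past the gene (DKO). These positions were 294 bp apart, the farthest of the family pairs, and held 22 (WT) and 55 (DKO) CpGs. The height ratio of 1.36 was the highest, 1.70 times the median over all pairs. The ES height was also higher in DKO, 2.60 against 1.82 in WT. Enrichment was thus 3.33 in WT (rank 10525) and 3.17 in DKO (rank 19812), a ratio of 0.950. None of the *Lamb2* windows held WGATAA.

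*Lamc1*, the γ chain of nearly all laminins, had 1 shared peak in intron 1, with heights of 16.6 at 155168153 in WT (ES height 3.52, rank 5011) and 9.45 at 155168148 in DKO (ES height 1.89, rank 6723). Each window held 3 matches. The DKO list had 3 further peaks. Heights were 5.38 at 155180461, 545 bp upstream of the start, 6.10 at 155147675 in intron 1 and 6.60 at 155071599 in intron 26, none with a match. *Lamc3*, of retina and brain vessels, had a DKO peak of height 9.90 at 31742862, 51 bp from its start, with 44 CpGs (rank 16577), among the 5 highest DKO family peaks without a counterpart, and another of height 5.57 at 31770787 in intron 11. The WT list named *Lamc3* by a peak of height 5.23 at 31805730, 50 bp from the start of *Aif1l*. The central bases of the *Lamc1* intron 1 peak, chr1:155168103-155168203, show 3 matches, and those of the DKO start-site peak, chr1:155180411-155180511, show none (both plus strand).
*Lamc1* intron 1: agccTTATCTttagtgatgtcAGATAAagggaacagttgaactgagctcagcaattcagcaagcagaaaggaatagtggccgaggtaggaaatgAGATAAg
*Lamc1* start, DKO only: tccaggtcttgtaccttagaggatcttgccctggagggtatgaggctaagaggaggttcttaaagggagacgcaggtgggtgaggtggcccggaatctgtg

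Start sites of the family genes gave a separate picture in each list. A WT peak lay within 1 kb of the start of *Col12a1*, *Col13a1*, *Col14a1*, *Col23a1*, *Lama5* and *Lamb2*, 6 of the 54 genes, beside 21.8% of all protein-coding genes. A DKO peak lay within 1 kb of the start of *Col5a1*, *Col15a1*, *Col18a1*, *Lamc1* and *Lamc3*, 5 of the 54, beside 34.5%. No family gene was in both groups, whereas 3803 protein-coding genes had a peak of each list at their start, beside 1046 with a WT and 3873 with a DKO peak only. Another 3 WT and 4 DKO family peaks lay at the start of a neighbouring gene instead, at *Adrm1* and *Usp19* in both lists, at *Aif1l* in WT, and at *Agxt2l2* and *Mff* in DKO. Peaks at the starts of family genes themselves had enrichments of 3.04 to 4.08 (WT) and 3.29 to 4.40 (DKO). Requiring an enrichment of 5 would thus leave none in either list. All peaks near start sites had median enrichments of 3.82 and 3.98.

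At the 19 shared positions the DKO height was below the WT height in 15 pairs (78.9%), and the median DKO/WT ratio was 0.693 (interval 0.578 to 0.992), beside 0.801 over all 10250 pairs, of which 72.1% were below. Since no scaling between the lists is given, pairs were read against that median. More than 1.5-fold lower were 3 of the 19 pairs, in *Col13a1*, *Col23a1* and *Lama3*, beside 20.7% of all pairs, and more than 1.5-fold higher were 2, in *Col4a6* and *Lamb2*, beside 13.4%. The ratio of enrichments, which also carries the ES heights, had a median of 0.95 in the family and 1.05 over all pairs. It was 0.568, 0.289 and 0.781 in the 3 lower pairs of *Col13a1*, *Col23a1* and *Lama3*. Of the 2 higher pairs it was 1.31 in *Col4a6* and 0.950 in *Lamb2*. ES heights were lower in DKO in 15 of the 19 pairs, beside 74.9% of all pairs.

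Other genes of the basement membrane and of collagen processing gave a second view, from a list of 47 genes outside the family. The WT list named 29 and the DKO list 32 of them, with 21 in common and 7 in neither, beside 36.4% and 45.5% of all protein-coding genes and 56.9% and 61.2% of those over 50 kb. Their median length was 60.5 kb. Of the basement membrane linkers, *Hspg2* (perlecan) had 2 WT and 4 DKO peaks and *Nid2* (nidogen) 2 DKO peaks, while *Nid1* and *Agrn* had none. *Sparc*, a collagen-binding protein that parietal endoderm secretes, had 1 WT peak of height 15.8 and 4 DKO peaks with a highest of 8.98. *Ntn1*, a laminin-related guidance protein, had the highest peaks of the list, with 8 in WT up to 44.9 and 4 in DKO up to 26.0, all 4 of them shared.

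Among the enzymes that mature collagen, the lysyl oxidase genes gave unlike counts. *Loxl1* had 2 WT peaks up to a height of 10.1 and 5 DKO peaks up to 6.44, and *Loxl4* had none. *Loxl2* had 3 WT peaks up to a height of 29.0 and 2 DKO peaks up to 6.27, *Loxl3* 1 WT peak of 13.1 and 6 DKO peaks up to 20.0, and *Lox* 3 DKO peaks only. The collagen chaperone gene *Serpinh1* and the hydroxylase genes *P4ha1*, *Plod2* and *Plod3* were named in DKO only, *P4ha3* in WT only, and *P4ha2* and *Plod1* in both. The procollagen protease gene *Adamts14* had 2 WT peaks up to a height of 27.1 and 1 DKO peak of 5.60. *Adamts3* had 3 WT peaks and no DKO peak, and *Adamts2* 4 WT and 3 DKO peaks up to 16.5 and 5.70. *Bmp1* had 1 peak in each list, of height 11.3 and 9.71. Of the receptors, *Itga1*, a collagen-binding integrin chain, had 5 WT and 6 DKO peaks, and *Itgb1*, its partner, 1 and 2. *Itga3* had 2 and 5, *Itgb4* 2 and 4, *Dag1* 1 and 2, and *Itga6* and *Itga7* 1 in each list. *Itga2* and *Ddr1* were named in DKO only, *Itga11* and *Ddr2* in WT only, and *Itga10* in neither.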

How the data were processed

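Gata4 ChIP-seq peak lists of WT and DKO Flk1(+) mesoderm, 1 library per condition, were used as deposited. Reads were mapped to mm9 for the authors, who called peaks with the DNAnexus tools with the ES cells of each genotype as background; the submitters' processing notes also name CASAVA 1.8.1 and cutadapt, and the aligner and any scaling between libraries are not given in the sources used here. The deposited signal of a peak is the authors' profile height in Flk1(+) and ES cells, with a lowest Flk1(+) height of 5.00. The authors' ratio of these heights, the enrichment, counts an ES height below 1 as 1 (true of all 20410 and 22733 peaks), and its lowest value was 3.00. The deposited −log10 q-value of the authors gives the rank used here as score, 1 being best. Gene names are the authors' RefSeq assignments within 5 kb. No column names a library: which genotype a list belongs to was taken from its peak count, as stated by the study. Depth is not in the files; the study reports more mapped reads for DKO, and heights were not rescaled.

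The deposited windows matched the mm9 reference at all 20410 and 22733 positions. Repeats were not filtered here, and short repeats fill much of the central bases of some low family peaks. Among these are the WT pair of *Col5a1*, *Col19a1* at 24460458 (WT), and the DKO peaks of *Col24a1* and *Lama1*. Others are *Lama4* at 38827018 (DKO) and the shared intron 6 position of *Col23a1*. Sharing means peak positions within 500 bp. Start sites are the 5′ ends of GENCODE vM1 genes. They were first the 5′ ends of all transcripts; after those results were seen, 4 definitions were tried over all peaks, and this one was taken because it came close to the shares in an earlier account of these data and holds no starts inside introns. The transcript used for introns was also changed after placements were seen. Introns and exons are now those of the protein-coding transcript that spans most of the gene. Column values were read by Python 3.11.15 with NumPy 2.4.6, SciPy 1.17.1 and pysam 0.24.0, and the steps were tested on simulated data. No test was run between the lists. Alternatives covered the distance for sharing, the motif and its window, the distance to start sites, rank, enrichment and the assignment to genes. The members and lists were chosen with earlier results of these data known. Values in full are given for most, not all, of the genes with 3 or more peaks, the 5 highest peaks of each list with and without a counterpart, pairs past 1.5-fold, and the type IV gene pairs. Printed sequences follow the same rule (the highest DKO-only peak is in a UTR and is replaced by the next), and the *Col4a1* intron 21, *Col13a1* and *Lamc1* intron 1 sequences were chosen after values were seen.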

Additional observations from a re-analysis of the deposited data

How the results depend on the processing

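Of 110 alternative values 84 stayed within the 95% interval of the value reported, or for counts within 1.5-fold. Keeping only peaks in the better-ranked 50% of each list left 25 WT and 24 DKO family peaks on 14 and 13 genes, 56.0% and 58.3% of them shared (all peaks under the same filter 52.2% and 55.5%, so that the family was no longer below the list), 84.0% and 70.8% with WGATAA (all 71.4% and 46.2%), with median heights of 10.4 and 7.51 (all 10.1 and 8.09), and 4.0% of the WT ones near a start site (all 20.8%). Requiring an enrichment of 5 left 25 WT and 28 DKO peaks, with 15 WT genes. Of these peaks 44.0% (WT) and 50% (DKO) were shared (all 42.1% and 56.9%), so that the WT family was no longer below the list. WGATAA was held by 76.0% and 57.1% (all 77.1% and 56.7%), so that the DKO family share was close to that of the list. Near a start site lay 0% (WT) and 3.57% (DKO) (all 13% and 30.8%), and the WT median height was 8.73 (all 8.72). WGATAA in the central 100 bp (and the peak base) was found in 43.4% (WT) and 29.8% (DKO), beside 38.8% and 21.1% over all peaks, and in the central 200 bp in 35.1% of DKO peaks, beside 28.9%; windows 2 kb away held it in 34.0% and 33.3%, beside 41.1% and 38.8%. Heights minus ES heights had medians of 5.34 and 5.27 (all 6.07 and 5.40). Central windows are shorter and the subtraction lowers heights by construction; for the subsets by rank or enrichment the cause was not tested. Leaving out *Col4a1*, *Col4a2* and *Col23a1*, a choice made after seeing the data, left 33 DKO and 37 WT peaks, so that the DKO list no longer had the larger number. Of the peaks left, 24.3% (WT) and 27.3% (DKO) were shared and 67.6% and 45.5% held WGATAA. Near a start site lay 21.6% (WT) and 27.3% (DKO) of them. With the starts of all transcripts, the first definition, 20.8% (WT) and 17.5% (DKO) lay near a start, beside 30.4% and 53.0% over all peaks; gene 5′ ends were chosen after seeing these. Genes over 50 kb were also added after seeing the data. No paired analysis was possible because each condition has 1 library.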
